A study of Homo sapiens with 6 samples.

Results

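The regions described here are the 260 peaks of β-catenin over control goat IgG that were found without a GSK3 inhibitor, out of 3126 peaks in the 3 peak lists of the study. All rows of the list for untreated cells were taken, with no further choice. The ChIP-seq (sequencing of DNA precipitated with chromatin by an antibody) was done in SA121, an established human embryonic stem cell line grown in DEF-CS medium. Confluent cultures were kept for 6 h in RPMI, a basal medium, without inhibitor (RPMI, labelled mock), with the GSK3 inhibitor CHIR99021 (CHIR) or with CHIR99021 and the activin/Nodal receptor inhibitor SB431542 (CHIR+SB). In every condition there was 1 library with the antibody to β-catenin (R&D systems, AF1329) and 1 with goat IgG (DAKO), each made from DNA of 3 parallel ChIPs that were pooled. The pooled ChIPs cannot be compared with each other, so no value below has a replicate error and no p-value is given. Ranges in parentheses after a ratio or a share are exact 95% intervals, which cover counting error only and compare these 2 libraries, not β-catenin and IgG ChIPs in general. The CHIR and CHIR+SB cultures enter only where they show whether a baseline peak was found in other libraries.

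β-catenin is a protein of cell junctions and the transcriptional effector of Wnt signalling. Without a Wnt signal, a complex that contains GSK3 phosphorylates it and marks it for degradation, and inhibition of GSK3 lets it accumulate and enter the nucleus. It does not bind DNA itself and is brought to genes by DNA-binding partners, best known among them the TCF/LEF factors. Goat IgG measures what precipitates without a specific antibody. The peaks without GSK3 inhibition are therefore the baseline against which the inhibitor-treated libraries stand.

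Of the 260 peaks, 143 (55.0%, 48.7 to 61.2%), were promoter peaks, with a centre within 1 kb of the transcription start site (TSS) of the gene that the authors assigned. They belonged to 142 genes, of which 115 were in the RefSeq table of protein-coding promoters used here (GRCh38.p14, 250 bases before to 50 after the start, 15842 promoters). The 7 letters CTCGCGA, in either orientation, stood in 87 of these 115 windows (75.7%, 66.8 to 83.2%) and in 516 of all 15842 (3.26%). The letters are most of a palindrome known as the CGCG element, which the transcription factor BANP is known to bind at CpG island promoters. The stretches below are 60 bases upstream of the start, around the match nearest to the start, for the 8 highest promoter peaks among the matching genes. They are shown because of the 12 features compared these letters differed most between the baseline promoters and all promoters. Sequences run 5′ to 3′ in the direction of the gene and are credited to RefSeq, build GRCh38.p14. Capitals mark CTCGCGA or its reverse complement TCGCGAG.
CDK12 (chr17:39461420-39461479, + strand): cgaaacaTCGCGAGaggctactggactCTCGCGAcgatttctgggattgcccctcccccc
ERCC6L2 (chr9:95875574-95875633, + strand): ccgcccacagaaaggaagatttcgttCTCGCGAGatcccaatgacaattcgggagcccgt
CDC5L (chr6:44387629-44387688, + strand): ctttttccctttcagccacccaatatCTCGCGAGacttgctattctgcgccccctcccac
RPL10A (chr6:35468329-35468388, + strand): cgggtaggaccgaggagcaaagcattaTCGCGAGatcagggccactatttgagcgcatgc
RPL12 (chr9:127451428-127451487, - strand): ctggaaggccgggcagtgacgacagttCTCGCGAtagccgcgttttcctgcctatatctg
ARF3 (chr12:48957540-48957599, - strand): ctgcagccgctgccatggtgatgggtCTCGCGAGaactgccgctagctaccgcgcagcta
PPP4R3B (chr2:55617710-55617769, - strand): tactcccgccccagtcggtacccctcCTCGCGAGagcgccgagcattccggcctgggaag
BTBD10 (chr11:13463289-13463348, - strand): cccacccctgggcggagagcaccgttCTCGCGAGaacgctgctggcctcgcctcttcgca

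In 5 of these 8 promoters, ERCC6L2, CDC5L, ARF3, PPP4R3B (SMEK2 in the peak list) and BTBD10, the letters extended to the full palindrome CTCGCGAG. CDK12 had 3 separate matches in the 250 bases before its start, which are printed whole. RNF167, whose promoter peak had the most reads among the searched genes without the letters, is printed for contrast.
CDK12 (chr17:39461236-39461485, + strand): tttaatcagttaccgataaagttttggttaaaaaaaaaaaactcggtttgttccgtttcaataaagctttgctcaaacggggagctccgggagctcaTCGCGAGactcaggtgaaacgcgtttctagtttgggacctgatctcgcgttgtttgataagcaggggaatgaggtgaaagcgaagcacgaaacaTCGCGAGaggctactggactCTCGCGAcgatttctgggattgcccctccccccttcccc
RNF167 (chr17:4939842-4940091, + strand): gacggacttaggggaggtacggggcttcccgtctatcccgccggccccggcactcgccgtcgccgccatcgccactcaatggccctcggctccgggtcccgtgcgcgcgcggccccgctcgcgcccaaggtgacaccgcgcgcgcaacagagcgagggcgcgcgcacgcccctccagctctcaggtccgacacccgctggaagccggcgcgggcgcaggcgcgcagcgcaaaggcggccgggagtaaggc

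**Figure D1:**
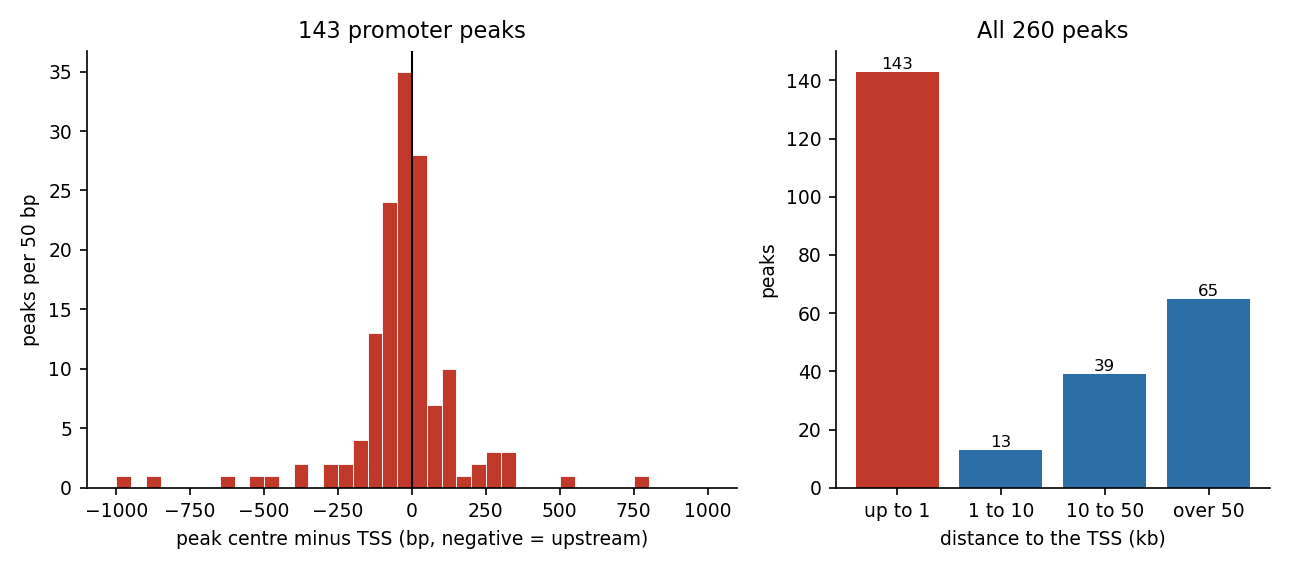
Left, the number of promoter peaks per 50 bp of signed distance from the peak centre to the TSS (bp). Right, the number of all 260 peaks by distance to the TSS (kb). The 143 promoter peaks gathered at the start site, with a median centre at -24 bp, and 13 peaks lay between 1 and 10 kb.

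The peaks fell into a group at start sites and a group far from them, with few between. A centre within 250 bp of the TSS was found for 126 peaks (48.5%). Beyond the 143 promoter peaks, 13 peaks lay 1 to 10 kb from the TSS, 39 lay 10 to 50 kb away and 65 more than 50 kb away. By the authors' relative positions, 41 of the 117 peaks away from promoters lay upstream of the assigned gene, 38 within it and 38 downstream. The promoter peaks were centred on the start: their median centre was at -24 bp (negative is upstream of the TSS), 87 of 143 centres were upstream, and 115 of 143 peaks spanned the TSS itself. Of the assigned genes, 233 peaks had a protein-coding one, 20 a long noncoding RNA, 5 a microRNA and 2 a transcribed pseudogene.

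The peaks held 6272 β-catenin reads and 1294 IgG reads over 82.6 kb. A peak held 15 to 115 β-catenin reads (median 20) and 0 to 15 IgG reads (median 4.5). The ratio of β-catenin to IgG was computed from the reads after scaling each library by its deposited factor, which multiplied the ratio of raw reads by 0.930. Over all peaks together it was 4.51 (4.25 to 4.79), and the median of single peaks was 4.28. All peaks had been called above IgG, so a ratio above 1 is how they were chosen and not a result. At a ratio of at least 5, 83 of the 260 peaks were called, which is 31.9% of the list. The interval of the ratio lay above 2 at 61 peaks, 23.5% of the list, and above 1 at 255.

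**Figure D2:**
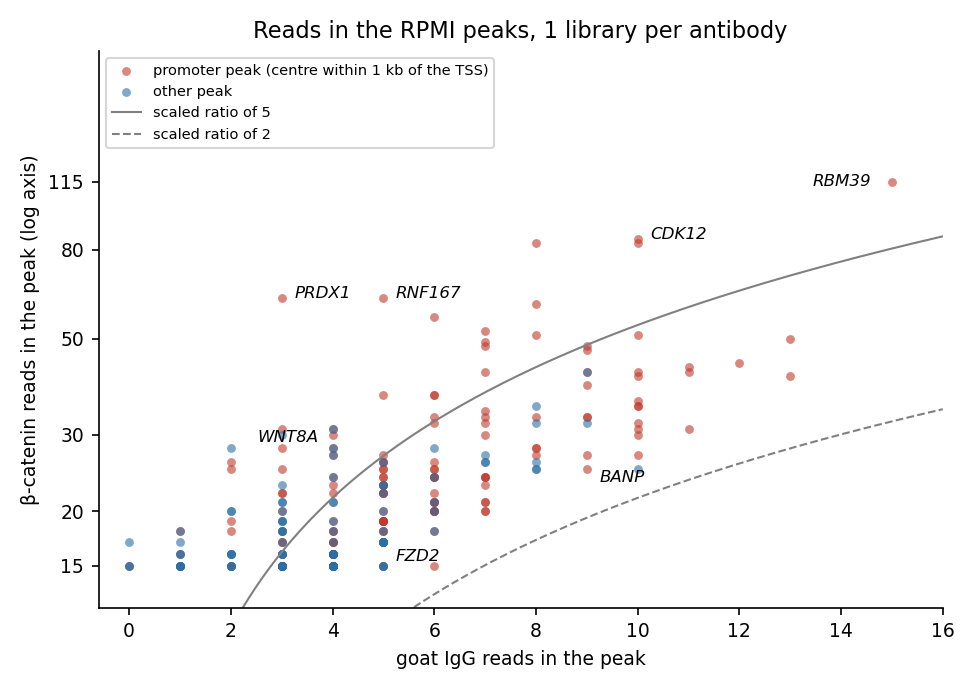
Each point is 1 of the 260 RPMI peaks, by reads of the goat IgG library (x axis) and of the β-catenin library (y axis, log scale) in the peak, with promoter peaks in red and other peaks in blue. The solid and dashed lines mark scaled ratios of 5 and 2; peaks with most β-catenin reads were promoter peaks and held more IgG reads, and no peak lay below the line of 2.

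Promoter peaks held more reads and were wider than the others but stood no higher above IgG. They were not denser in reads. The median was 71.4 β-catenin reads per kb at the 126 peaks within 250 bp of the TSS. It was 78.8 at the 39 peaks 10 to 50 kb away and 86.7 at the 65 beyond 50 kb. Their median was 24 β-catenin reads and 5 IgG reads in 368 bp, against 16 and 4 reads in 200 bp at the other 117 peaks. The median ratio was 4.09 at promoters and 4.65 elsewhere, and the pooled ratios were 4.50 (4.18 to 4.85) and 4.53 (4.09 to 5.02). Of the promoter peaks 45 of 143 (31.5%) reached a ratio of 5, and of the others 38 of 117 (32.5%), both close to the 31.9% of the whole list. An interval above 2 was found at 40 promoter peaks (28.0%) and 21 others (17.9%), beside 23.5% of the list. That rule needs reads as well as a ratio, and the promoter peaks had more reads.

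Among the listed peaks, IgG reads moved with β-catenin reads. Of the 20 peaks with at least 10 IgG reads, 19 were at promoters. The share of promoter peaks was 32.1% among the 78 peaks with 0 to 3 IgG reads, 56.2% among the 121 with 4 to 6 and 75.6% among the 41 with 7 to 9. The median ratio was 6.90, 3.72 and 3.46 in these groups and 3.38 in the 20 peaks with 10 to 15 IgG reads, where the groups share the IgG reads with the ratio. Across the 260 peaks, Spearman's rho between β-catenin and IgG reads was 0.696, and between β-catenin reads and peak width 0.892. Peak width enters both read counts. The list also holds only peaks called above IgG, so a peak with many IgG reads needed many β-catenin reads to enter it. The fewest β-catenin reads were 15 at 4 to 6 IgG reads, 20 at 7 to 9 and 25 at 10 to 15. How much of the rho and of the promoter shares comes from this selection was not tested. How far open or easily sheared chromatin at promoters adds reads to both libraries was not tested.

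The highest peak of the list lay at RBM39, a splicing factor and transcriptional coactivator (hg19, chr20:34329882-34330714). It held 115 β-catenin reads and 15 IgG reads, a ratio of 7.13 (4.15 to 13.2), with its centre 40 bp upstream of the TSS. Its 15 IgG reads were the most of any peak and equal the fewest β-catenin reads with which a peak entered the list. The ratio at the overlapping peaks was 7.96 in CHIR (234 and 16 reads) and 9.32 in CHIR+SB (124 and 19 reads), each over its own IgG. In CHIR+SB 2 peaks overlapped it, and the values are those of the one with the larger overlap. That peak was 483 bp wide, against 832 bp in RPMI.

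CDK12, the kinase that phosphorylates the tail of RNA polymerase II during elongation, came next with 85 and 10 reads in chr17:37617273-37618021. Its ratio was 7.91 (4.10 to 17.1), with 5.29 in CHIR and 6.37 in CHIR+SB. ERCC6L2, a helicase-like protein of DNA repair, had 83 and 10 reads and a ratio of 7.72 (4.0 to 16.7). At both promoters the ratio was above 5 in all 3 pairs of libraries, for ERCC6L2 8.39 in CHIR and 6.51 in CHIR+SB.

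The highest finite ratio at any promoter belonged to PRDX1, a peroxidase that removes hydrogen peroxide, with 62 β-catenin reads and 3 IgG reads. That ratio of 19.2 had an interval of 6.28 to 95.8, and the peak at the same place had a ratio of 4.01 in CHIR (81 and 11 reads) and 4.15 in CHIR+SB (61 and 21 reads). RNF167, an E3 ubiquitin ligase, had the same 62 reads over 5 IgG reads, with a ratio of 11.5 (4.69 to 36.8), and 5.22 and 5.19 in the inhibitor-treated pairs. ARF3, a small GTPase of the Golgi, went the other way. Its 50 reads stood over 13 IgG reads in RPMI, a ratio of 3.58 (1.92 to 7.18), while the CHIR pair had 127 and 5 reads and a ratio of 13.8. In CHIR+SB, ARF3 had 56 and 16 reads and a ratio of 5.0. Between RPMI and CHIR, the pair with fewer IgG reads had the higher ratio at each of these 3 promoters, but in CHIR+SB ARF3 had more IgG reads and a higher ratio than in RPMI.

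**Figure D3:**
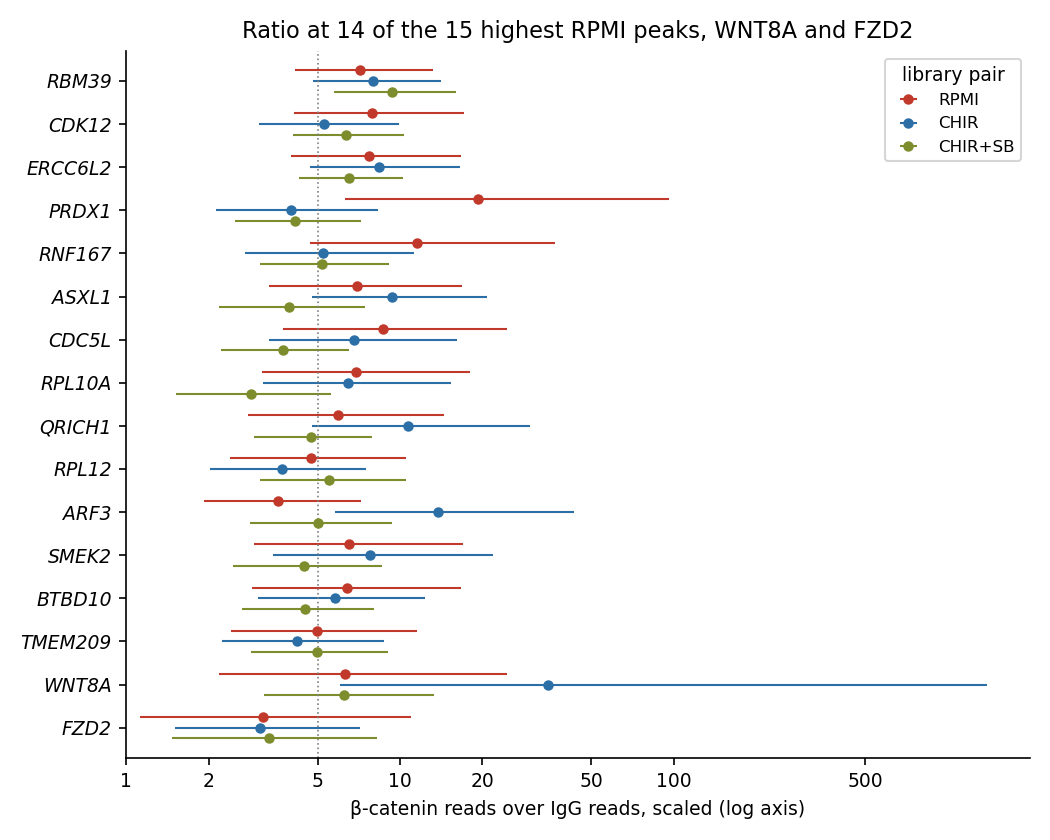
Scaled ratio of β-catenin to IgG reads (log axis) at 14 of the 15 highest RPMI peaks and at WNT8A and FZD2, in RPMI and at the overlapping peaks of CHIR and CHIR+SB, each over the IgG of its own condition. Bars are exact 95% intervals for counting error; 1 library per point. At every gene shown the RPMI interval overlaps the others, and PRDX1 is the highest in RPMI at 19.2.

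Further promoters among the 15 highest peaks had 48 to 60 β-catenin reads over 6 to 10 IgG reads. They were ASXL1, a cofactor of the deubiquitinase that acts on histone H2A, with a ratio of 6.98, and CDC5L, a core spliceosome protein, with 8.68. The ribosomal genes RPL10A and RPL12 had 6.91 and 4.75, and QRICH1 had 5.93. SMEK2 (now PPP4R3B), a regulatory subunit of protein phosphatase 4, had 6.51, BTBD10 6.38 and TMEM209 4.96. All 15 highest peaks lay at promoters and overlapped a peak in both other lists.

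At the low end, the smallest ratios were those of NBPF15 (2.33, 25 and 10 reads), SRSF10 (2.33, 15 and 6 reads), PUF60 (2.51), BANP (2.58) and COQ9 (2.62). SRSF10, a splicing regulator, had an interval that reached below 1 (0.85 to 7.32). NBPF15 belongs to a family of near-identical copies, between which the alignment could divide reads. BANP, the factor known to bind the CGCG element, had 25 and 9 reads over its own start (interval 1.17 to 6.29), and its window holds the element 18.5 bp downstream of the start. The ratio at BANP was 3.27 in CHIR (72 and 12 reads) and 4.67 in CHIR+SB (49 and 15 reads).

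A count of 0 IgG reads was found at 4 peaks: NKAIN3 with 17 β-catenin reads, and RNLS, NREP-AS1 and SRP19 with 15 each. They have no finite ratio and were counted among the 83 peaks at or past 5-fold. Against a floor of 3 reads for the IgG library, the ratio was at least 5.27-fold at NKAIN3. At the 3 peaks with 15 reads it was at least 4.65-fold, so with that floor these 3 would not reach the limit of 5. None of these 4 overlapped a peak of another list. SRP19, a protein of the signal recognition particle, was the single promoter peak among them.

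At baseline, the peaks near Wnt genes lay away from their promoters. Of 84 genes of the Wnt pathway and its targets, 4 had a peak within 50 kb (4.76%), beside 0.888% of all 20052 protein-coding genes, and none of these peaks was at a promoter. In CHIR 22 of the 84 Wnt genes were near a peak, beside 539 of 20052 protein-coding genes (2.69%). In CHIR+SB it was also 22 of 84, beside 749 of 20052 (3.74%). The CHIR and CHIR+SB lists are longer, with 1053 and 1813 peaks. WNT8A, a Wnt ligand of the early embryo, had 27 β-catenin and 4 IgG reads in chr5:137431051-137431518, a peak 11.5 kb from the TSS and beyond the gene's end. Its ratio was 6.28 (2.19 to 24.7), and at the overlapping peaks 34.8 in CHIR (64 reads and 1 IgG read) and 6.23 in CHIR+SB (48 and 11 reads). The CHIR ratio rests on 1 IgG read. FZD2, a Wnt receptor, had 17 and 5 reads 16.9 kb upstream (chr17:42617869-42618005), a ratio of 3.16 (1.12 to 11.0), close to the 3.08 in CHIR and 3.33 in CHIR+SB.

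The ligand gene WNT10A had 23 and 5 reads at 28.5 kb, a ratio of 4.28 (1.59 to 14.4). BCL9, an adaptor that links β-catenin to its coactivators, had 18 and 3 reads 46.2 kb inside the gene, a ratio of 5.58 (1.63 to 29.6). Both overlapped a CHIR peak, with ratios of 3.74 and 3.27. FZD1, another Wnt receptor, had a pair of peaks 63 bp apart about 91.2 kb downstream, outside the 50 kb limit, with 16 reads over 1 IgG read and 15 over 3. These 2 peaks met the same peak of the CHIR list. Of 29 pluripotency genes and of 30 primitive streak and mesendoderm genes, none had a peak within 50 kb in RPMI, beside 0.888% of all protein-coding genes. At that background share, lists this short would often hold none. The pluripotency genes are the markers of the labelled cell type, but binding peaks do not measure expression and so do not check it.

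Genes of general cell functions had peaks mostly at their promoters, as did the whole list among its peaks within 50 kb of a TSS. Of 86 cytosolic ribosomal protein genes 10 (11.6%) had a peak within 50 kb, beside the 0.888% background, and all 10 were promoter peaks. Among them, beside RPL10A and RPL12, were RPS19 (44 and 12 reads), RPL17 (23 and 5), RPL7A (22 and 3), RPL27A (20 and 6), RPS6 (18 and 5), RPL26 (15 and 4) and RPS15 (15 and 4). Their median ratio was 3.89, and 3 of the 10 reached 5, beside 4.28 and 31.9% for the whole list. Ribosomal protein genes have many processed pseudogenes, to which some of their exonic reads could be assigned. Of 77 mitochondrial ribosomal protein genes none had a peak within 50 kb.

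Genes of general transcription and elongation had 4 of 98 members near a peak (4.08%), and all 4 were promoter peaks. They were CDK12, the Mediator subunit MED1 (24 and 6 reads), the Mediator cyclin CCNC (22 and 6) and the elongation factor SUPT5H (17 and 5). Splicing and mRNA processing genes also had 4, of 101 (3.96%): RBM39, CDC5L, LUC7L2 (37 and 6 reads) and SRSF10. Cell cycle genes had 3 of 88 (3.41%): MAD1L1 of the spindle checkpoint (25 and 5), CDK6 (16 and 4, 18.2 kb from the TSS) and CDC20, the activator of the anaphase-promoting complex (15 and 4). Lists of DNA repair (87 genes), chromatin regulators (98), redox and heat shock genes (42) and ubiquitin ligases and proteasome (92) had 1 member each. These were ERCC6L2, ASXL1, PRDX1 and RNF167, shares of 1.15%, 1.02%, 2.38% and 1.09% beside the background of 0.888% of protein-coding genes. Histone genes (84), small nucleolar RNA genes (545) and respiratory complex I genes (46) had none, and zinc finger genes named ZNF had 5 of 517 (0.967%). These lists were drawn up with earlier results of these data known.

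**Figure D4:**
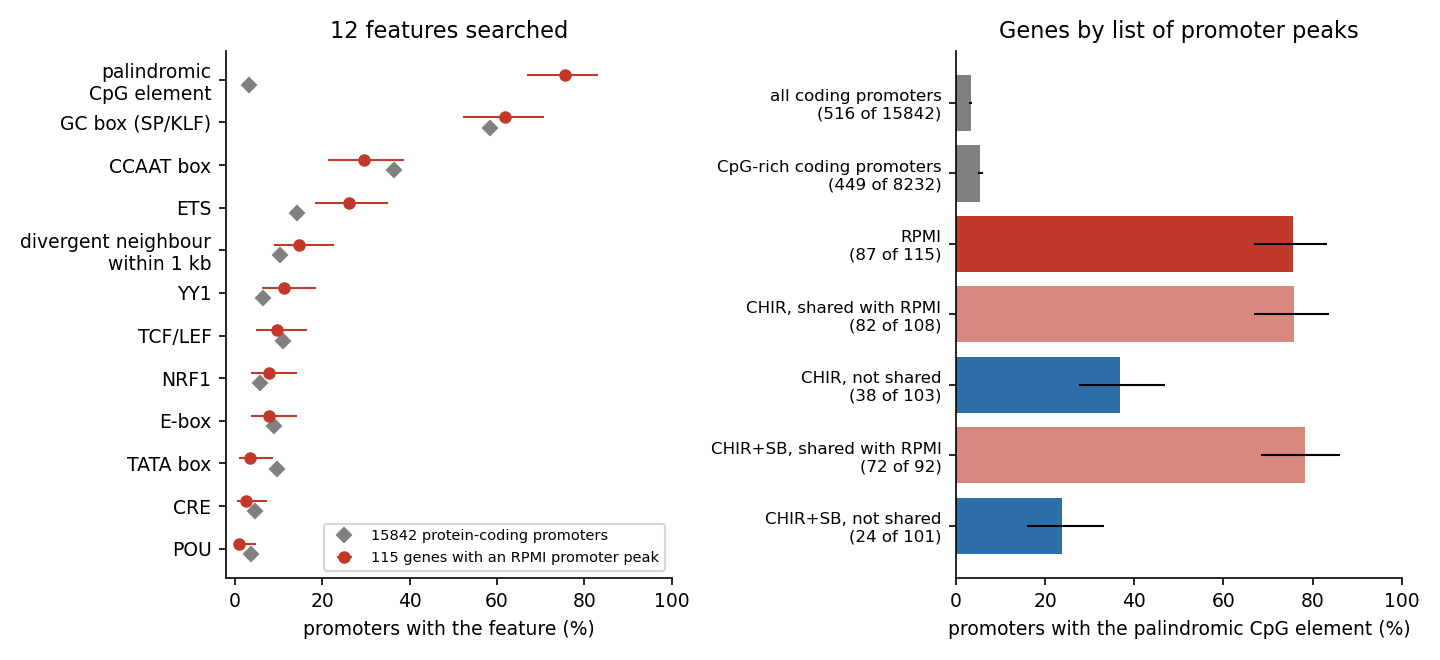
Left, the share of promoters (%) that hold each of 12 features, in the 115 genes with an RPMI promoter peak (red, bars are exact 95% intervals) and in 15842 protein-coding promoters (grey). Right, the share with the palindromic CpG element by gene set, with the same intervals. The element was in 75.7% of baseline promoters and 3.26% of all, while the other features lay closer to the background.

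The CTCGCGA letters were 1 of 11 motifs searched on both strands of the 300-base windows. TCF/LEF letters (CTTTGAT or CTTTGTT, and likewise CTTTGAA or CTTTGTA) were in 11 of the 115 baseline windows (9.57%, 4.87 to 16.5%) and in 11.0% of all promoters. ETS letters (CCGGAAG) were in 26.1% against 14.2%, and YY1 letters (AAGATGG) in 11.3% against 6.401%. The GC box (GGGCGG) was in 61.7% against 58.5%, the CCAAT box (CCAAT) in 29.6% against 36.4% and the TATA box (TATAAA) in 3.48% against 9.63%. NRF1 letters (GCGCATG) were in 7.83% against 5.87%, the E-box (CACGTG) in 7.83% against 8.88%, the CRE (TGACGTC) in 2.61% against 4.58% and POU letters (ATGCAAA) in 0.870% against 3.75%. A protein-coding neighbour that starts in the other direction within 1 kb was found for 14.8% against 10.3%. A match is a string of letters in a window, and no binding by any factor was measured other than by the β-catenin antibody.

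Base composition differed less than the element did. Median GC content was 63.0% in the baseline windows and 62.7% in all, and the median ratio of observed to expected CpG was 0.902 and 0.763. Among windows with a CpG ratio of at least 0.75, the element was in 76 of 99 baseline promoters (76.8%) and in 449 of 8232 promoters (5.45%). The full 8-letter palindrome CTCGCGAG was in 65 of 115 baseline windows (56.5%) and in 242 of 15842 (1.53%). The 6 central letters TCGCGA were in 88 of 115 and in 695 of 15842 (4.39%). The 7-letter search contains every match of the 8 letters and is contained in that of the 6.

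Read from the element to the peaks, 87 of the 516 promoters with CTCGCGA had a baseline promoter peak (16.9%, 13.7 to 20.4%), as did 65 of the 242 with the full palindrome (26.9%). Of the 15326 promoters without the 7 letters, 28 had one (0.183%). The element lay close to the start: its median position was -45.5 bp in the baseline promoters, and in 77 of 87 it was within 100 bp of the start. Over all 516 promoters with the letters, the median was -66.5 bp and 331 were within 100 bp. Measured from the start in each one's own build, the peak centre was within 100 bp of the element at 65 of 88 peaks. The centres of these 88 peaks had a median of -12 bp. Element and centre thus both gathered at the start, and the count cannot tell closeness to the element from closeness to the start.

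The same counts were made within 1 gene family, the ribosomal protein genes. Of 69 such genes in the promoter table, 12 held the letters. Of these, 9 had a baseline promoter peak (75%, 42.8 to 94.5%), beside 16.9% of all promoters with the letters. Of the 57 without the letters, 0 had one, which allows a share of up to 6.27%, beside 0.183% of all promoters without them. At that background share, most sets of 57 genes would hold none. Of the 10 ribosomal protein genes with a baseline promoter peak, 9 were in the promoter table, so the letters were not searched in all of them. RPL24, RPL4 and RPS28 held the letters and had no RPMI promoter peak. In each other list fewer promoters held the letters, so the counts are small. Of the members whose promoter held the letters, a baseline promoter peak was found for 4 of 7 general transcription genes, 2 of 9 splicing genes, 1 of 4 DNA repair genes and 1 of 4 cell cycle genes. It was found for 0 of 4 in each of the chromatin, redox and ubiquitin lists, where the interval reaches 60.2%. All of these intervals overlap that of the ribosomal genes. The 16.9% of all promoters with the letters lies inside each of them except that of the general transcription genes (18.4 to 90.1%). The Wnt list had the letters in 0 of 60 promoters, the pluripotency list in 0 of 22 and the primitive streak list in 0 of 16. Their intervals reach 5.96%, 15.4% and 20.6%, all above the 3.26% of all promoters. These counts therefore cannot tell the 3 lists from the background.

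Peaks with and without the element differed little in height. The 88 promoter peaks of genes with it had a median of 24 β-catenin and 6 IgG reads and a ratio of 3.83, and the 28 without it had 22.5 and 5 reads and a ratio of 4.65. A ratio of 5 was reached by 24 of 88 and by 11 of 28. In CHIR 82 of 88 and 26 of 28 were found again. The highest searched promoters without the letters were RNF167, ASXL1 and QRICH1, then LUC7L2 and CFAP70 (TTC18 in the peak list) with equal reads. RBM39 and PRDX1 were not in the promoter table, so the letters were not searched there. In 4 equal groups of promoter peaks, from fewest to most reads, the element was in 69.0%, 72.4%, 79.3% and 82.8%, with intervals that overlap.

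In the inhibitor-treated lists, promoter peaks that overlapped no RPMI peak held the element at a lower share. Of CHIR promoter-peak genes whose peak overlapped an RPMI peak, 82 of 108 held it (75.9%, 66.7 to 83.6%), and of those whose peak did not, 38 of 103 (36.9%, 27.6 to 47.0%). In CHIR+SB it was 72 of 92 (78.3%, 68.4 to 86.2%) and 24 of 101 (23.8%, 15.9 to 33.3%). TCF/LEF letters were in 10.2% and 9.71% of the same CHIR sets and in 11.96% and 9.90% of the CHIR+SB sets, near the 11.0% of all promoters. The intervals cover counting error only, and the sets share the genes found in both lists.

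The peaks away from promoters were weaker in reads. The highest was one of a pair of peaks upstream of DYNC1H1, the heavy chain of cytoplasmic dynein. The pair lay 248 bp apart about 16.6 and 16.2 kb from the TSS, with 42 and 9 reads in 215 bp and 32 and 9 reads in 114 bp. The second had 280.7 β-catenin reads per kb, the highest density of the list, and also its highest IgG density, 78.9 per kb. DENR, a translation re-initiation factor, had a pair of promoter peaks on either side of its start, 164 bp apart, with 42 and 41 β-catenin reads and 10 IgG reads each. Each of these pairs met a single peak in CHIR and a single one in CHIR+SB.

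Other high peaks away from promoters were FBRS (35 and 8 reads), NRTN, a neurotrophic ligand (32 and 8), and GLDC, an enzyme of glycine cleavage (31 and 4, ratio 7.21). SLC6A11, a GABA transporter, had 30 and 3 reads 57.4 kb inside the gene, a ratio of 9.30 (2.89 to 47.6). ZCCHC14 had 28 and 2 reads 1.20 kb upstream, a ratio of 13.0 (3.28 to 112.8). SMCR7L (now MIEF1) had 28 and 4 reads and VPS37B 23 and 3. At ZCCHC14 the ratio was 11.97 in CHIR, resting on 22 reads over 1 IgG read (1.94 to 494.1), and 5.43 in CHIR+SB. At GLDC it was 5.01 and 3.24.

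Most baseline peaks with many reads were found in the other libraries, and most with few were not. Of the 143 promoter peaks 133 were met by a CHIR peak and 118 by a CHIR+SB one, and of the other 117 peaks 48 and 42 did. The 73 peaks found in neither list had a median of 15 β-catenin reads in 158 bp, and 6 of them were promoter peaks. Their median ratio was 4.19 and 21 of 73 reached 5, close to the whole list. Those with most reads were LAMP1, a lysosomal membrane protein (28 and 8), NBPF15 (25 and 10), the primase subunit PRIM2 (24 and 6), SRRT (22 and 5) and DDAH1 (20 and 6). Of the 55 peaks with 15 reads, the minimum, 15 were met by one in CHIR and 10 by one in CHIR+SB.

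Between conditions, the ratio over IgG was less alike than the β-catenin reads or the IgG reads. The conditions differ in treatment and have 1 library per antibody, so treatment and counting noise cannot be told apart. At the 181 partners in CHIR the median ratio over that condition's IgG was 4.57 and 78 reached 5 (43.1%), beside 44.3% of all CHIR peaks. At the 160 partners in CHIR+SB it was 4.11 and 48 of them reached 5, beside 37.9% of all CHIR+SB peaks. In RPMI itself, 59 of the 181 (32.6%) and 54 of the 160 (33.8%) reached 5. Of the 181 peaks, 35 (19.3%) reached 5 in both RPMI and CHIR. Of the 160, 19 (11.9%) did so in both RPMI and CHIR+SB. Unrelated calls would also place some peaks past 5 in both conditions, and whether these counts exceed that was not tested. Spearman's rho of the ratio between RPMI and CHIR was 0.303 over 181 peaks, and between RPMI and CHIR+SB 0.116 over 160. For β-catenin reads it was 0.659 and 0.538, where the widths of overlapping peaks are related, and for IgG reads 0.444 and 0.434. Promoter partners had lower ratios than the others in both conditions, with medians of 4.17 and 4.97 in CHIR and 3.78 and 4.96 in CHIR+SB.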

How the data were processed

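β-catenin and goat IgG ChIP-seq libraries from SA121 cells were compared within each condition. The submitters' processing notes name Bowtie as a tool, and hg19 and mm9 as builds. Of the peak caller and its thresholds nothing was found (not given in the sources used here), nor of the libraries' total depth. Deposited by the authors was 1 list for each β-catenin library, in which, per the file headers, each peak has read counts of the β-catenin and the IgG library, scaled counts, their ratio, an assigned gene and the distance to its TSS. Human positions in the lists are those of hg19, and their decimal commas were read as points. Reads were multiplied by the factor that the deposited scaled counts imply for each library. Ratios carry exact conditional binomial (Clopper-Pearson) 95% intervals, a calculation tested on simulated data. PCR reads without molecular identifiers are not independent molecules.

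Peaks of 2 lists overlapped when they shared at least 1 bp. Where several peaks of a list met the same RPMI peak, values are those of the one with the largest overlap. A gene was near a peak when the authors assigned it one within 50 kb. Genes were counted in 10 lists and 17 name families. All 260 gene names matched the RefSeq table (GRCh38.p14), used for names, types and promoter windows. No hg19 genome was used here, so sequences of peaks away from promoters were not analysed. The text names RBM39, CDK12, WNT8A and FZD2, the 15 peaks with most reads, the 10 highest lower ends of the ratio, the 5 lowest ratios, the 5 with most IgG reads, peaks with 0 IgG reads, the 5 highest of each other position class and of those in neither other list, genes with several peaks, and list members. 1 gene that this rule names is not reported here. Other ribosomal genes, and genes named for lacking or holding the element, were chosen after their values were seen. The members, lists and rules were chosen with earlier results of these data known. Alternatives covered the scaling, a pseudocount of 1 read, 3-fold and 10-fold limits, promoter limits of 0.5 and 2 kb, a stricter overlap, peaks with more reads and other forms of the element. Python 3.11.15, pandas 2.3.3, numpy 2.4.6 and scipy 1.17.1 were used.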

Additional observations from a re-analysis of the deposited data

How the results depend on the processing

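Of 35 alternative settings over 9 results, 26 left the value within its counting interval, or the count within 1.5 times, and 9 did not. A pseudocount of 1 read lowered the median ratio from 4.28 to 3.72. The number of peaks at or past the limit, 83 at 5-fold, was 238 at 3-fold, 22 at 10-fold and 45 when peaks at or above the median read count were counted, which holds fewer peaks. Without scaling it was 117. Among peaks at or above the median read count, the promoter share was 74.8% instead of 55.0%, the share that overlapped CHIR 94.1% instead of 69.6%, and that for CHIR+SB 88.9% instead of 61.5%. Of the peaks at or past 10-fold, 40.9% were at promoters, against 54.2% at 5-fold. The difference of the median ratios, promoter minus other, was -0.56 and stayed negative at -0.62 to -0.16 under its 7 alternatives.

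For the element, chosen after seeing the data were the 6-letter form (76.5% of baseline promoters), the 8-letter form (56.5%, a longer string), CpG-rich windows (76.8%), peaks at or past 5-fold (68.6%) and peaks with at least the median read count (78.3%), beside 75.7%. No paired analysis was possible because each condition had 1 library per antibody, and for the same reason no replicate could be left out. With 15 to 115 reads in a peak and 0 to 15 in its control, depth limits single ratios: at 15 reads over 4, the interval ran from 1.11 to 14.4.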

Other observations

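Baseline peaks were spread unevenly over the chromosomes. Chromosome 12 had 23 peaks, or 22.5 per 1000 protein-coding genes of the RefSeq table, and chromosome 2 had 26, or 20.7 per 1000. Chromosome 11 had 3 peaks, or 2.31 per 1000, and chromosome X 2, or 2.36 per 1000. Chromosome 19, which is rich in genes, had 11, or 7.58 per 1000.

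Promoter peaks with the CTCGCGA letters held 17.0 IgG reads per kb in the median and those without them 12.9, over 88 and 28 peaks. Their median widths were 385 and 348.5 bp.

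MicroRNA genes with a peak within 50 kb numbered 3 of 1913 (0.157%), beside 0.888% of protein-coding genes. MIR153-2 had 27 and 7 reads 21.1 kb upstream in RPMI, 41 and 2 reads in CHIR, and ratios of 3.59, 11.2 and 7.62 in RPMI, CHIR and CHIR+SB. It was named after its values were seen. TMEM18, also named after its values were seen, had 25 and 2 reads at its promoter, a ratio of 11.6 (2.90 to 101.3), and 10.9 in CHIR and 5.40 in CHIR+SB.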
